A study of Mus musculus with 15 samples.

Results

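The 10 genes Fos, Fosb, Jun, Junb, Jund, Fosl2, Atf3, Egr1, Dusp1 and Ppp1r15a were taken by name as AP-1 and immediate early stress genes, out of 21788 symbols listed across the 15 libraries. All 10 were listed in 13 libraries, and 9 of 10 in the bulk pair, where Jund was not listed. Averaged over the 9 sorted libraries, Dusp1, Junb and Fos had the highest levels, while Fos was the lowest of the 10 in the combo library. The fitted log2 difference between sorted cells labelled B7S1 knockout (KO) and wild-type cells of the same table was below 0 for all 10, with a median of -1.24, but that of Fosl2 was near 0 and none passed the test across all genes. With the KO label 10 members were lower in DN and 9 in TIM-3_SP, while 6 were higher in B7S1R_SP. At least 2-fold lower, with 5 FPKM or more in the higher library, were 8 in DN (36.8% of genes) and 5 in TIM-3_SP (13.9%). In B7S1R_SP only Fos and Atf3 were at least 2-fold higher (10.7% of genes), and Fosb, Jun, Egr1 and Dusp1 were near level. The median log2 difference over all genes at that level was below 0 for each population. It was lowest for DN, at -0.57 log2 units. In the antibody libraries Fos spanned 0.13 to 200 FPKM while Dusp1 stayed between 251 and 323 FPKM.

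Fos and Jun family proteins carry a basic leucine zipper and pair to form AP-1, a transcription factor that binds the TRE and CRE elements of DNA. In T cells AP-1 forms downstream of the antigen receptor and CD28 through MAP kinases, and it binds with NFAT at cytokine genes. Most of these genes are immediate early genes: they are switched on quickly and without new protein synthesis by receptor signals and by stress, including the stress of dissociating and sorting tissue. Atf3 encodes a stress-induced zipper protein of the ATF/CREB family, and Egr1 a zinc finger factor. Dusp1 encodes a phosphatase that switches MAP kinases off. Ppp1r15a encodes GADD34, the phosphatase subunit that reverses eIF2α phosphorylation in the integrated stress response.

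The cells came from E.G7 tumours, a T cell lymphoma line that makes ovalbumin (OVA), grown under the skin of female mice that received tumour cells at 6 to 8 weeks of age and were 9 to 11 weeks old at sampling on day 21. PD-1+ CD8+ tumour-infiltrating cells were sorted into TIM-3_SP (Tim-3+ B7S1R-), B7S1R_SP (Tim-3- B7S1R+) and DN (negative for both) populations. Each population gave 1 library labelled KO and 2 wild-type libraries, numbered 1 and 2. OVA-specific CD8+ cells gave 1 bulk KO and 1 bulk wild-type library, with 6 mice per group. The libraries titled combo, anti_PD1, anti_B7S1 and Control are wild type, 1 each, with the same tumour and age fields. Their labels state no dose, schedule, day or sort of their own. The strain is C57BL/6, although the strain field counts upward over the sorted libraries as far as C57BL/13 and the genotype field reads B7S1 KO, B7S2 KO and B7S3 KO, so groups were taken from the titles. The labels do not say whether libraries came from separate animals, so p-values measure only the spread between these libraries.

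The deleted gene, Vtcn1, was listed at 2.5 FPKM in the TIM-3_SP library labelled KO, 0.16 FPKM in B7S1R_SP labelled KO and 1.02 FPKM in DN labelled KO, against 0 in each wild-type library numbered 2. In bulk cells it stood at 9.46 RPKM in the library labelled KO and 0.0687 RPKM in wild type. These values go against the KO label, so directions by genotype below are those of libraries labelled KO. All 11 T cell markers were at 1 or more in all 15 libraries, with levels by genotype given beside the members. The values, RPKM in bulk and FPKM elsewhere, are scaled to gene length and library size, and depth was not given. The sorted wild-type libraries numbered 1 form a table of 15627 symbols, and those numbered 2 share a table of 17605 symbols with the libraries labelled KO. The summed FPKM of 4 erythroid markers was 4.17 to 105.7 in the libraries labelled KO and 8626 to 69640 in wild type numbered 2, which stood apart in this, and the B7S1R_SP library labelled KO stood apart in macrophage and dendritic cell markers. In bulk samples fewer cells of a type and less RNA per cell cannot be told apart.

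The promoters of 9 of 10 members were found in the RefSeq table for GRCm38.p6, and the 250 bases before the start given by each entry were searched on both strands. Because they differ in CRE letters, 4 promoters of members with high values are shown over 150 bases, 5′ to 3′ on the gene's strand, with capitals for TGACGTCA (the full CRE) and for TGACG (its first 5 letters), or their complements.
Dusp1, chr17:26508473-26508622, minus strand: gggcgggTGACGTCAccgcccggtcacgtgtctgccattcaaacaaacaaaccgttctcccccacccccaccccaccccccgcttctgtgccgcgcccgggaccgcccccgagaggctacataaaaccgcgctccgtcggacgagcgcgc
Ppp1r15a, chr7:45526269-45526418, minus strand: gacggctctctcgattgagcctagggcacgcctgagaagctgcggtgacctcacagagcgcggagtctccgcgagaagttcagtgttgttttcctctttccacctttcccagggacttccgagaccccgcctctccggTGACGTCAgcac
Fos, chr12:85473740-85473889, plus strand: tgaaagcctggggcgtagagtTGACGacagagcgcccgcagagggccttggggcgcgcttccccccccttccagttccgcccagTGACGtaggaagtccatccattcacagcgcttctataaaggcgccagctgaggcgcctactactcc
Junb, chr8:84978749-84978898, minus strand: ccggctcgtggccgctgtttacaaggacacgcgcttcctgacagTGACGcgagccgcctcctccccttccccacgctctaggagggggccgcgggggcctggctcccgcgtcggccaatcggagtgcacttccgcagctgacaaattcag

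The full CRE stood at -143 to -136 in Dusp1 and at -12 to -5 in Ppp1r15a, counted from the gene start, and 1.55% of 32851 mouse promoters of the same length hold it. The shorter TGACG, which also lies inside the full CRE, is held by 17.8% of promoters. In Dusp1 it also stood apart from the full CRE, at -191 to -187, outside the bases shown. It was present in Fos, at -129 to -125 and -66 to -62, in Junb at -106 to -102, and in Atf3 at -7 to -3 on the other strand. In Fosb it stood at -60 to -56 from the start given by the promoter entry. That window, chr7:19310046-19310295, overlaps the listed Fosb locus, chr7:19302696-19310118, and the match lies inside the locus. The TRE letters TGANTCA, held by 6.75% of promoters, and the CArG box of serum response factor, held by 1.47%, had no match in any of the 9 windows. Jun, Jund and Fosl2 had no match to any of these letters. Bases farther upstream were not searched, nor was Egr1, which had no promoter entry, so sites there remain unknown. In the same build Fos lies at chr12:85473890-85477274, Junb at chr8:84976909-84978748, Jun at chr4:95049036-95052222, Atf3 at chr1:191170296-191183333, Dusp1 at chr17:26505591-26508472 and Ppp1r15a at chr7:45522917-45526268.

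Junb and Dusp1 were among the 3 highest members in each of the 9 sorted libraries, and Fosl2 or Atf3 was the lowest. Averaged over the 9 libraries, which differ in population, genotype and table, the level was 456 ± 384 FPKM for Dusp1, 318 ± 325 for Junb, 172 ± 143 for Fos, 94.3 ± 85.5 for Ppp1r15a and 48.3 ± 43.3 for Egr1 (SD, n = 9). The lower members averaged 34.8 ± 64.6 FPKM for Jun, 23.8 ± 26.2 for Atf3, 21.2 ± 17.4 for Fosb, 14.9 ± 6.33 for Jund and 5.16 ± 5.46 for Fosl2 (SD, n = 9). Neighbours in this order differed by less than the larger of their SDs, except Jund and Fosl2. The spread itself differed between members: the highest sorted library was 58.1-fold the lowest for Jun and 169-fold for Atf3, whereas Jund ran only between 7.63 and 27.5 FPKM.

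Within the families, Junb carried most of the Jun family RNA and Fos most of the Fos family RNA of sorted cells. Junb made up 75.6% to 93.9% of the summed Jun, Junb and Jund FPKM in the sorted libraries. Fos made up 73.2% to 90.3% of the summed Fos, Fosb and Fosl2 FPKM there. In the antibody libraries the Fos share was 0.0691% in combo, 18.2% in anti_PD1 and 20.9% in anti_B7S1, against 40.6% in Control. Fosb held 97.3% of the family in combo, and Fosl2 held 50.9% in anti_B7S1. In bulk cells the Fos share was 56.8% in the library labelled KO and 18.8% in wild type.

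**Figure D1:**
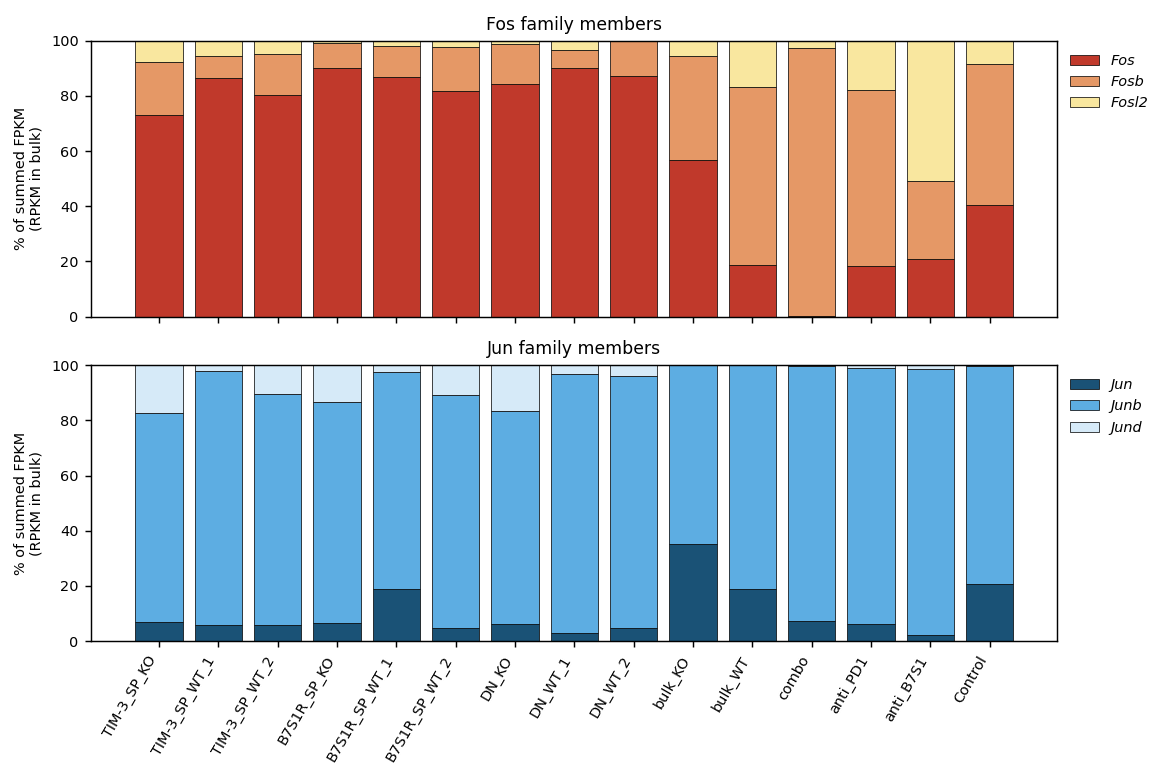
Share of each member in the summed FPKM (RPKM in the bulk pair) of the Fos family (upper panel) and the Jun family (lower panel), 1 bar per library. Junb fills most of every Jun bar, while the Fos share is 73.2% or more in each sorted library and 0.0691% in combo; Jund was not listed in the bulk pair.

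Genotype was compared between the 3 sorted libraries labelled KO and the 3 wild-type libraries numbered 2, which share a table, with limma on log2(FPKM + 1) and the population as a covariate. Each population has 1 library per genotype here, so the error of this fit comes from how the difference varies between populations, not from replicate libraries. Junb, a Jun partner that often opposes Jun, stood at 58.7 FPKM (TIM-3_SP), 46.3 (B7S1R_SP) and 43.2 (DN) in libraries labelled KO, against 157 (TIM-3_SP), 63.0 (B7S1R_SP) and 363 (DN) in wild type numbered 2. All 3 KO values lay below all 3 wild-type values, and the log2 difference was -1.63 ± 0.55 (SE, limma adjusted p = 0.367). Ppp1r15a, the eIF2α phosphatase subunit, stood at 20.4 (TIM-3_SP), 20.9 (B7S1R_SP) and 16.2 (DN) FPKM in libraries labelled KO, against 54.4 (TIM-3_SP), 31.8 (B7S1R_SP) and 101.9 (DN) in wild type numbered 2. It too did not overlap between genotypes, with a difference of -1.51 ± 0.48 (SE, limma adjusted p = 0.367). Of 10097 genes, 9.99% had all KO values below all wild-type values, against these 2 members of 10.

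Dusp1, the MAP kinase phosphatase, stood at 135 (TIM-3_SP), 87.6 (B7S1R_SP) and 61.4 (DN) FPKM in libraries labelled KO, against 376 (TIM-3_SP), 85.6 (B7S1R_SP) and 671 (DN) in wild type numbered 2. Egr1 stood at 13.2 (TIM-3_SP), 9.05 (B7S1R_SP) and 6.72 (DN) FPKM in libraries labelled KO, against 47.8 (TIM-3_SP), 8.68 (B7S1R_SP) and 65.7 (DN) in wild type numbered 2. Both were low in all 3 KO libraries and in the wild-type B7S1R_SP library, and high in the other wild-type libraries. The log2 difference was -1.62 ± 0.66 for Dusp1 (SE, limma adjusted p = 0.398) and -1.61 ± 0.62 for Egr1 (SE, limma adjusted p = 0.386).

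Fos stood at 34.2 (TIM-3_SP), 121 (B7S1R_SP) and 50.5 (DN) FPKM in libraries labelled KO, against 53.0 (TIM-3_SP), 54.0 (B7S1R_SP) and 289 (DN) in wild type numbered 2. The ranges overlapped, with a wide gap in DN and the KO library higher in B7S1R_SP. Jun stood at 5.34 (TIM-3_SP), 3.85 (B7S1R_SP) and 3.57 (DN) FPKM in libraries labelled KO, against 11.2 (TIM-3_SP), 3.49 (B7S1R_SP) and 18.1 (DN) in wild type numbered 2. Atf3 stood at 2.42 (TIM-3_SP), 18.0 (B7S1R_SP) and 0.45 (DN) FPKM in libraries labelled KO, against 42.7 (TIM-3_SP), 1.54 (B7S1R_SP) and 76.0 (DN) in wild type numbered 2. Atf3 had the widest swing of the members, lower with the KO label in DN and TIM-3_SP and higher in B7S1R_SP. Its log2 difference was -2.17 ± 1.49 (SE, limma adjusted p = 0.553), that of Jun -0.97 ± 0.50 (SE, limma adjusted p = 0.462) and that of Fos -0.65 ± 0.68 (SE, limma adjusted p = 0.684).

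The other 3 members differed less. Fosb ranged over 8.72 to 11.8 FPKM in libraries labelled KO and 9.66 to 41.0 in wild type numbered 2, with a log2 difference of -0.69 ± 0.53 (SE, limma). Jund ranged over 7.63 to 13.6 FPKM in libraries labelled KO and 8.03 to 19.8 in wild type, with a difference of -0.40 ± 0.37 (SE, limma). Fosl2 ranged over 0.74 to 3.64 FPKM in libraries labelled KO and 0.79 to 3.16 in wild type, with a difference of -0.018 ± 0.36 (SE, limma). Fosl2 was thus near equal between genotypes in this table, and its sign turns when each library is centred on its median.

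**Figure D2:**
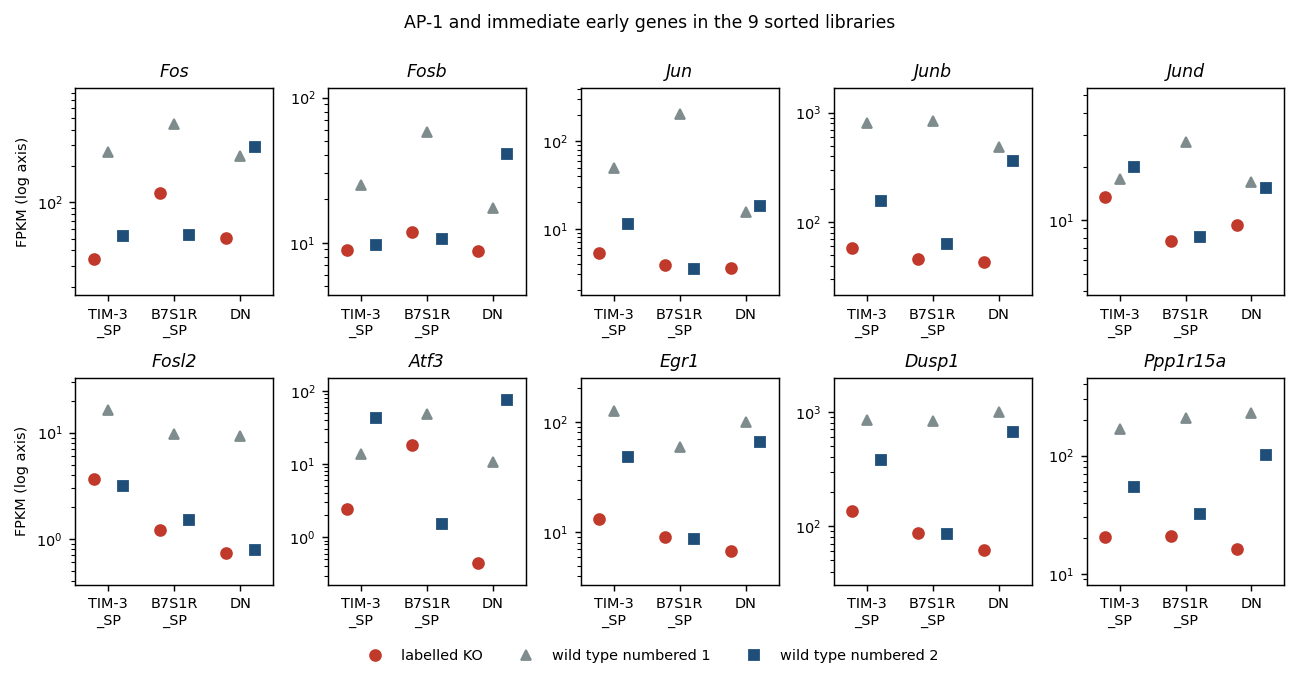
FPKM (log axis, its range set for each gene) of the 10 members in the 9 sorted libraries, by population; red circles are libraries labelled KO, grey triangles wild type numbered 1 and blue squares wild type numbered 2. In DN the KO value is the lowest of the 3 for every member, for example 61.4 FPKM for Dusp1 against 994 and 671 in wild type.

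In this fit 4 of 10097 genes (0.0396%) had an adjusted p under 0.05, and no member did. Those 4 were the globin genes Hba-a1, Hba-a2 and Hbb-bs, and Xkrx, all lower with the KO label and named after their values were seen. At an unadjusted p under 0.05 there were 4 members (Junb, Ppp1r15a, Egr1 and Dusp1), where 12.4% of all genes passed. The median log2 difference was -1.24 over the 10 members and -0.16 over all genes tested. Lower values with the KO label in all 3 populations were found for Junb, Jund and Ppp1r15a, and for 23.5% of genes.

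By population, DN carried the widest differences. In DN all 10 members were lower with the KO label, 8 of them at least 2-fold with 5 FPKM or more in the higher library, where 36.8% of genes were that much lower. In TIM-3_SP 9 of 10 were lower and 5 at least 2-fold (Junb, Atf3, Egr1, Dusp1 and Ppp1r15a), where 13.9% of genes were. In B7S1R_SP 6 of 10 were higher with the KO label, and 2 of them, Fos and Atf3, at least 2-fold, where 10.7% of genes were that much higher. Fosb, Jun, Egr1 and Dusp1 were near level there, at 0.14, 0.11, 0.054 and 0.033 log2 units. The median log2 difference of the 10 members was -2.54 for DN, against -0.57 over all genes with 5 FPKM or more in the higher library. For B7S1R_SP it was 0.043 over the members and -0.11 over all genes at that level. The TIM-3_SP medians were -1.16 (members) and -0.13 (all genes at that level). These counts and medians come from 1 library per side and carry no test.

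**Figure D3:**
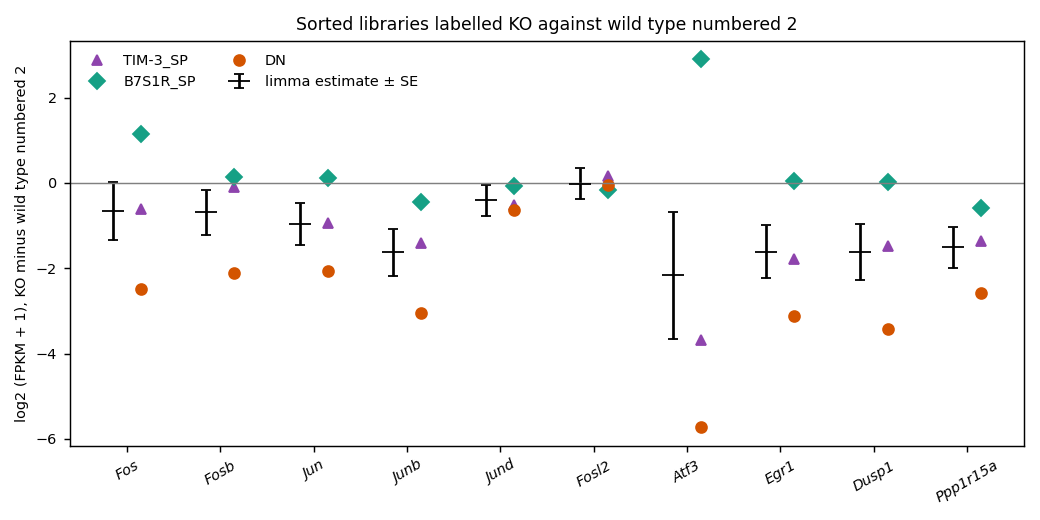
Difference in log2(FPKM + 1), libraries labelled KO minus wild type numbered 2, for each member: coloured points are single populations and black bars the limma estimate over the 6 libraries ± SE. DN points lie lowest for 9 of the 10 members and B7S1R_SP points lie near or above 0 for most, with Atf3 the widest spread.

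Whether the genotype difference itself differed between populations was tested in all 9 sorted libraries. The wild-type pairs give the error, and since each pair spans both tables, that error includes the difference between the tables. No member and 0 of 10178 genes (0%) passed in the contrasts TIM-3_SP minus DN, B7S1R_SP minus DN and B7S1R_SP minus TIM-3_SP, and at an unadjusted p under 0.05 there were 38, 58 and 66 genes in that order. The widest member value was Atf3 in B7S1R_SP minus DN, at 5.14 ± 2.64 log2 units (SE, limma adjusted p = 1). With a replicate block that puts the libraries labelled KO with wild type numbered 2, added after the data were seen, 0 genes were called again, and 98, 99 and 116 genes had an unadjusted p under 0.05, no member among them.

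Cell type markers differed between the same libraries. Summed T cell markers were 6974 FPKM in TIM-3_SP labelled KO and 9303 in wild type numbered 2, 2436 FPKM in B7S1R_SP labelled KO and 2857 in wild type, and 3779 FPKM in DN labelled KO and 6574 in wild type. Lower with the KO label were 10 of the 11 markers in TIM-3_SP, 7 in B7S1R_SP and 10 in DN, where Lck, chosen after its values were seen, stood at 76.6 FPKM labelled KO and 427 in wild type. Summed erythroid markers were 10.7 FPKM in TIM-3_SP labelled KO, 4.17 in B7S1R_SP labelled KO and 106 in DN labelled KO, against 69640, 8626 and 48508 FPKM in wild type numbered 2 of TIM-3_SP, B7S1R_SP and DN. All 4 erythroid markers were at 1 or more in the wild-type TIM-3_SP and DN libraries and 2 of 4 in the other 4 libraries. The 4 adult globin genes together made up 9.71% of all FPKM in wild-type TIM-3_SP, 1.13% in B7S1R_SP and 7.84% in DN. Globin RNA in wild type was thus least in B7S1R_SP. Of 20 macrophage and dendritic cell markers, 19 were at 1 or more in B7S1R_SP labelled KO and 17 in its wild-type counterpart, with sums of 8920 FPKM labelled KO and 845 in wild type. In the other populations that sum was 290 FPKM in TIM-3_SP labelled KO and 205 in wild type, and 353 FPKM in DN labelled KO and 320 in wild type. Erythroid sums were thus lower with the KO label in all 3 populations, B7S1R_SP included, and the macrophage and dendritic cell sum differed mainly in B7S1R_SP. The part of these cell types, or of T cell RNA in general, in the member values was not tested.

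**Figure D4:**
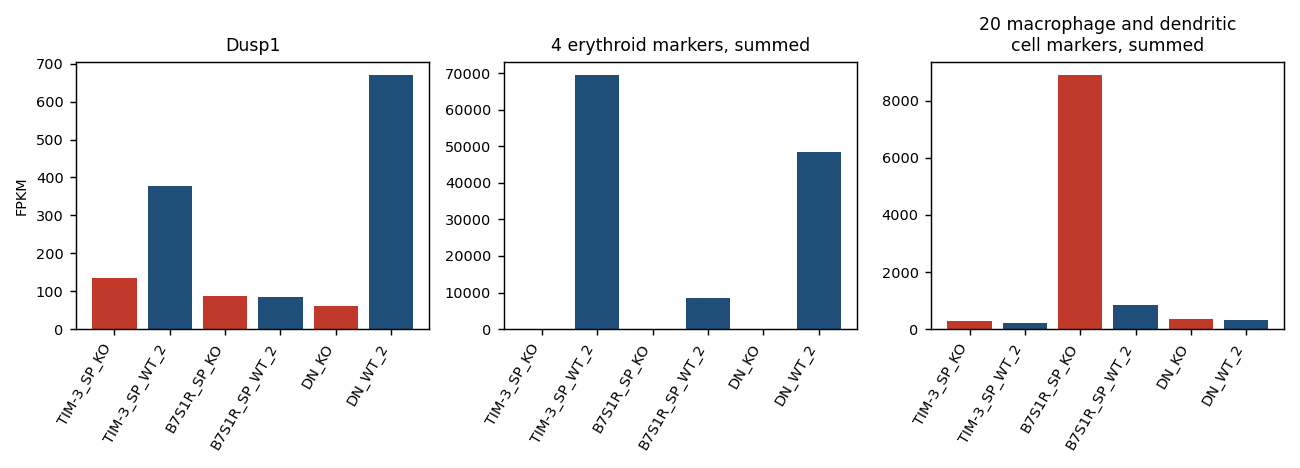
FPKM of Dusp1, of 4 summed erythroid markers and of 20 summed macrophage and dendritic cell markers in the libraries labelled KO (red) and wild type numbered 2 (blue). Dusp1 is highest in the wild-type TIM-3_SP and DN libraries. The erythroid sum is higher in wild type than with the KO label in each population, B7S1R_SP included. The macrophage and dendritic cell sum is high in B7S1R_SP labelled KO, at 8920 FPKM.

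Of the fits that left out 1 library, those without a DN library brought the genotype difference nearest to 0. Without either DN library 8 of 10 members were lower, the median was -0.40 and no member had an unadjusted p under 0.05. Without either B7S1R_SP library the median was -1.77, with 9 of 10 lower and 6 at an unadjusted p under 0.05. The wild-type libraries numbered 1 come from another table, so a fit of the KO label against them crosses tables that list different genes, and it was added after the erythroid values were seen. It called 8 of 10 members, all but Fosb and Jund, each lower with the KO label (limma, adjusted p under 0.05), with a member median of -2.74, and it called 11.9% of 10374 genes.

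Wild-type libraries of 1 population differed widely between the numbers. In B7S1R_SP all 10 members were at least 2-fold higher in number 1, where 47.4% of genes were: Jun stood at 203 FPKM in number 1 and 3.49 in number 2, and Junb at 839 and 63.0 FPKM in numbers 1 and 2. In TIM-3_SP 8 were at least 2-fold higher in number 1, against 44.1% of genes, and Atf3 was lower at 13.9 FPKM, against 42.7 in number 2, as were 16.1% of genes. In DN Fosl2 and Ppp1r15a were at least 2-fold higher in number 1, against 15.1% of genes, and Fosb and Atf3 at least 2-fold lower, against 10.5%. Fos in DN differed little, at 244 FPKM in number 1 and 289 in number 2. These ratios set levels across tables that list different genes.

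The populations were compared in the 6 wild-type libraries, 2 per population. No member was called, and 0 of 10411 genes (0%) passed in TIM-3_SP against DN, B7S1R_SP against DN or B7S1R_SP against TIM-3_SP. At an unadjusted p under 0.05 the 3 comparisons had 358, 280 and 493 genes and no member. With the replicate number as a block 2, 0 and 7 genes were called in them, and again no member. The widest member differences were both of Egr1, at -1.76 ± 1.05 in B7S1R_SP against DN (SE, limma adjusted p = 1) and -1.70 ± 1.05 in B7S1R_SP against TIM-3_SP (SE, limma adjusted p = 0.999), on the log2 scale. Egr1 stood at 59.1 and 8.68 FPKM in B7S1R_SP numbers 1 and 2, against 125 and 47.8 in TIM-3_SP and 99.2 and 65.7 in DN. Egr1 and Dusp1 were the 2 members lower in B7S1R_SP than in both other populations in both numbered sets. Summed T cell markers were also lowest in B7S1R_SP, at 5136 and 2857 FPKM in numbers 1 and 2. They were 7403 and 9303 FPKM in TIM-3_SP and 8387 and 6574 in DN. The part of T cell RNA in general in these member values was not tested.

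Several members changed order between the numbered sets. Jun stood at 203 FPKM in B7S1R_SP, 49.5 in TIM-3_SP and 15.4 in DN in the set numbered 1, and at 3.49, 11.2 and 18.1 FPKM in the same populations of the set numbered 2. Fos stood at 442 FPKM in B7S1R_SP, 263 in TIM-3_SP and 244 in DN in the set numbered 1. In the set numbered 2 Fos stood at 54.0 FPKM in B7S1R_SP, 53.0 in TIM-3_SP and 289 in DN. B7S1R_SP was thus the highest population for Fos and Jun in one set and close to or at the lowest in the other. Dusp1 was near level in set 1, at 838 FPKM in B7S1R_SP, 853 in TIM-3_SP and 994 in DN, and spread in set 2, at 85.6, 376 and 671 FPKM in those populations.

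Counted within each set, with at least 2-fold and 5 FPKM in the higher library, the members followed no common order. In B7S1R_SP against DN 3 members were higher in set 1 (28.7% of genes), 8 lower in set 2 (30.3%) and 2 higher with the KO label (6.59%). In TIM-3_SP against DN 1 was higher in set 1 (27.7%), 3 lower in set 2 (30%) and 1, Dusp1, higher with the KO label (9.87%). In B7S1R_SP against TIM-3_SP 3 were higher in set 1 (26.9%) and 1, Egr1, lower (18.4%), 6 were lower in set 2 (18%), and 2, Fos and Atf3, were higher with the KO label (20.4%). The B7S1R_SP libraries had macrophage and dendritic cell sums of 2445 FPKM in set 1, 845 in set 2 and 8920 with the KO label, above the other populations of their set. Their part in these counts was not tested.

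Other genes of these pathways were followed in 6 lists, chosen with earlier results of these data known, and none of their genes passed in the population or genotype fits. With the KO label, other immediate early genes had 17 of 26 tested genes lower and a median log2 difference of -0.81, against -0.16 over all genes. By population, medians were taken over list genes with 5 FPKM or more in the higher library. They were -0.25 in TIM-3_SP (21 of 28 genes), -0.37 in B7S1R_SP (20 of 28) and -1.65 in DN (25 of 28). In DN 19 of those 25 genes were at least 2-fold lower. Over all DN genes at that level the median was -0.57, and 36.8% were at least 2-fold lower. Gadd45b, a stress-induced growth arrest gene, stood at 44.3 (TIM-3_SP), 26.3 (B7S1R_SP) and 24.5 (DN) FPKM labelled KO, against 99.9 (TIM-3_SP), 91.6 (B7S1R_SP) and 134 (DN) in wild type numbered 2. Klf2, a quiescence and trafficking factor, ran the other way, at 25.8 (TIM-3_SP), 48.3 (B7S1R_SP) and 45.0 (DN) FPKM labelled KO, against 7.92 (TIM-3_SP), 11.1 (B7S1R_SP) and 12.9 (DN) in wild type. Both were named for a large difference in the same direction in every population, so their separation between genotypes is a description. The log2 differences were -1.77 ± 0.41 and 1.78 ± 0.36 (SE, limma adjusted p = 0.367 for both).

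Among other AP-1 and bZIP partners 9 of 15 tested genes were lower with the KO label and the median was -0.20. Nfil3, a bZIP repressor induced by cytokines, stood at 3.42 (TIM-3_SP), 5.93 (B7S1R_SP) and 3.78 (DN) FPKM labelled KO, against 27.9 (TIM-3_SP), 12.0 (B7S1R_SP) and 59.6 (DN) in wild type numbered 2. Batf, which pairs with Jun proteins in T cells, stood at 144 (TIM-3_SP), 42.0 (B7S1R_SP) and 84.8 (DN) FPKM labelled KO, against 237 (TIM-3_SP), 66.9 (B7S1R_SP) and 318 (DN) in wild type. Batf was lower in each population but overlapped between genotypes, and neither passed (limma adjusted p = 0.367 for Nfil3 and 0.386 for Batf). The MAPK phosphatases had 6 of 7 lower, with a median of -0.54. Dusp6, which acts on ERK, ranged over 9.22 to 14.8 FPKM labelled KO, below all 3 wild-type values. Its log2 difference was -1.43 ± 0.43 (SE, limma adjusted p = 0.367). Nfil3, Batf and Dusp6 were named for a large difference in the same direction in every population, so their values are a description. Of 10097 genes, 9.99% had all KO values below all wild-type values.

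The remaining lists had no call either. MAPK and SRF inputs had 14 of 21 lower with a median of -0.52, the integrated stress response 9 of 12 with -0.52, and T cell AP-1 partners 6 of 8 with -0.52. By population, medians of the T cell AP-1 partners cover only genes with 5 FPKM or more in the higher library. They were -0.35 in TIM-3_SP (7 of 9 genes), 0.96 in B7S1R_SP (3 of 9) and -1.14 in DN (7 of 9). Below that level in B7S1R_SP, Rel stood at 2.12 FPKM labelled KO and 4.98 in wild type numbered 2. Nfatc1 stood at 2.17 FPKM labelled KO and 3.17 in wild type there. Atf4, the factor whose translation the integrated stress response raises, stood at 162 (TIM-3_SP), 171 (B7S1R_SP) and 177 (DN) FPKM labelled KO, against 278 (TIM-3_SP), 202 (B7S1R_SP) and 458 (DN) in wild type numbered 2 (limma adjusted p = 0.454). Rel, Nfatc1 and Atf4 were named for a difference in the same direction in every population, so their directions are a description. Between populations, other immediate early genes had 23 of 26 lower in B7S1R_SP than in DN, with a median of -0.82 against -0.027 over all genes, and 19 of 26 lower in TIM-3_SP than in DN, with -0.58 against -0.17. Within each set, medians were again taken over list genes with 5 FPKM or more in the higher library. For B7S1R_SP against DN the median was -1.32 in the set numbered 2, against 0.028 in the set numbered 1 and 0.097 with the KO label. For TIM-3_SP against DN it was -0.17 in the set numbered 1, -0.68 in the set numbered 2 and 0.55 with the KO label. Egr2, a receptor-induced relative of Egr1, stood at 1.46 and 0 FPKM in TIM-3_SP numbers 1 and 2, against 8.89 and 5.26 in DN. It was named for a large difference in the same direction in both numbered sets, so these values too are a description.

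In the 6 libraries of the shared table the genes whose profiles lay nearest to a member were sought among 5884 genes, by the mean absolute difference of centred log2(FPKM + 1). For Dusp1 the nearest of all was Egr1, at 0.11 log2 units, followed by H2-K2 (0.11) and Abhd4 (0.22), and Junb ranked 5. For Junb the nearest were Abhd4 (0.13), Tmbim1 (0.20) and Tapbp (0.21), with Ppp1r15a at rank 7, Dusp1 at 18 and Egr1 at 24. For Fos the nearest were Psap (0.27), Pot1a (0.30) and Kctd13 (0.30), with Fosb at rank 19 and Junb at 842. Atf3 ranked 5332 for Fos, 4985 for Junb and 3615 for Dusp1.

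Bulk OVA-specific cells, 1 library per genotype, gave no test, and the members split in direction. Fos stood at 185 RPKM in the library labelled KO and 46.1 in wild type, a ratio of 4.01. Dusp1 stood at 662 RPKM in the library labelled KO and 268 in wild type, a ratio of 2.48. Fosl2 was lower, at 18.1 RPKM in the library labelled KO and 41.1 in wild type. These 3 of 9 listed members passed 2-fold with 5 RPKM or more in the higher library, as did 22.9% of 6075 genes.

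The other bulk values differed by less than 2-fold. Junb stood at 55.4 RPKM in the library labelled KO and 94.9 in wild type, and Fosb at 122 RPKM in the library labelled KO and 159 in wild type. Ppp1r15a stood at 88.6 RPKM in the library labelled KO and 60.3 in wild type. It was thus higher in bulk with the KO label, although lower in all 3 sorted populations. A bulk direction opposite to that in all 3 sorted populations, counted either way round, was found for 20.5% of 8970 genes. Jun stood at 30.1 RPKM in the library labelled KO and 22.3 in wild type, Egr1 at 30.9 in the library labelled KO and 26.1 in wild type, and Atf3 at 63.0 in the library labelled KO and 68.8 in wild type. The summed macrophage and dendritic cell markers were 345 RPKM in bulk cells labelled KO and 309 in bulk wild type.

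The antibody libraries differed widely over all genes, so member ratios there have a high background. Ratios of 2-fold or more with 5 FPKM in the higher library were found for 66.9% of genes in anti_B7S1 against Control, 67.6% in anti_PD1 against Control, 68% in combo against Control, 64.1% in combo against anti_B7S1 and 56.3% in combo against anti_PD1. Members past it numbered 5, 5, 5, 5 and 3 of 10 in those comparisons, which share libraries. Fos stood at 0.13 FPKM in combo, 10.6 in anti_PD1 and 20.8 in anti_B7S1, against 200 in Control. Jun stood at 75.4 FPKM in combo, 61.8 in anti_PD1 and 26.4 in anti_B7S1, against 424 in Control. Fos and Jun were at least 2-fold lower than Control in all 3 antibody libraries, as were 10.3% of 9120 genes. Control, shared by these comparisons, stood apart in the number of genes detected: 6913 genes were at 1 FPKM or more in combo, 8640 in anti_PD1 and 6972 in anti_B7S1, against 5752 in Control. Its part in the ratios was not tested. Of other immediate early genes, 13 of 22 with 5 FPKM or more were at least 2-fold lower in anti_B7S1 than in Control and 2 higher, where 29.0% of all genes were lower. In anti_PD1 12 of 24 were lower than in Control and 3 higher, where 23.8% of all genes were lower, and in combo 11 of 24 were lower and 4 higher, where 28.0% were lower.

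Fosb and Atf3 followed other orders. Fosb stood at 183 FPKM in combo, 37.0 in anti_PD1 and 28.1 in anti_B7S1, against 251 in Control, so that combo lay near Control and the single antibodies far below. Atf3 stood at 24.7 FPKM in combo, 218 in anti_PD1 and 28.6 in anti_B7S1, against 1.25 in Control, the lowest of the 4. Fosl2 stood at 4.96 FPKM in combo and 10.4 in anti_PD1, with 50.7 in anti_B7S1 and 41.7 in Control. The combo and anti_PD1 libraries were the low pair. Jund stood at 4.83 FPKM in combo, 10.6 in anti_PD1 and 17.3 in anti_B7S1, against 6.75 in Control.

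Junb, Egr1 and Dusp1 varied least. Dusp1 stood at 306 FPKM in combo, 251 in anti_PD1 and 296 in anti_B7S1, against 323 in Control. Egr1 stood at 100.2 FPKM in combo, 85.8 in anti_PD1 and 61.1 in anti_B7S1, against 81.3 in Control. Junb stood at 978 FPKM in combo, 946 in anti_PD1 and 1102 in anti_B7S1, against 1612 in Control. The highest of the 4 libraries was 1.29-fold the lowest for Dusp1, 1.64-fold for Egr1 and 1.70-fold for Junb, while 91.9% of 9120 genes spanned 2-fold or more, as did the other 7 members. A gene in these shares needed 5 FPKM only in its highest library, so they are not matched to the level of Dusp1, Egr1 and Junb. Only 0.548% of genes spanned less than Dusp1 on the log2(FPKM + 1) scale, and 99.5% spanned less than Fos. This evenness holds for the values as deposited: when each library was centred on its median, anti_PD1 minus Control was -2.55 log2 units for Dusp1, -2.11 for Egr1 and -2.95 for Junb. That median covers all listed genes, with 6242 entries at 0 in Control and 2244 in anti_PD1. It therefore depends on how many genes were detected as well as on their levels.

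Ppp1r15a stood at 117 FPKM in combo, 218 in anti_PD1 and 219 in anti_B7S1, against 269 in Control, and was past 2-fold in combo against Control alone. With the PD-1 antibody, effects at least 2-fold in opposite directions without and with the B7S1 antibody were found for 12.7% of genes, and with the B7S1 antibody, without and with the PD-1 antibody, for 12.1%. Fosb met both, Jun the first and Atf3 the second. Summed macrophage and dendritic cell markers were 135 to 209 FPKM in the 3 antibody libraries and 501 in Control, with 3 of 14 markers at 1 or more in combo, 6 in anti_PD1, 1 in anti_B7S1 and 3 in Control. Chosen after their values were seen, the markers that made up most of the Control sum were Cd68 (247 FPKM) and Cd74 (246 FPKM), whereas Lyz2 stood at 66.7 FPKM and Cd14 at 36.4 FPKM in combo and both were listed at 0 in Control. Summed erythroid markers were 0.09 to 39.5 FPKM in the antibody libraries and 38.5 in Control. Their part in the member values was not tested.

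**Figure D5:**
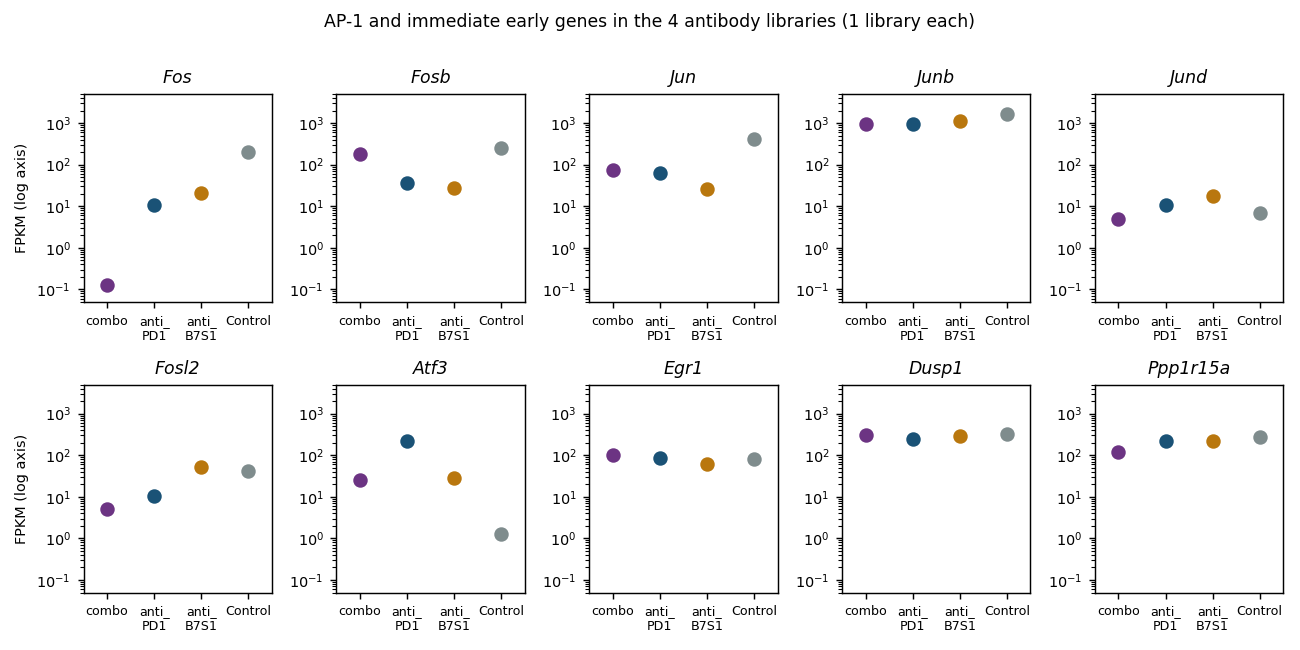
FPKM (log axis, the same range in each panel) of the 10 members in the combo, anti_PD1, anti_B7S1 and Control libraries, 1 library each and no error. Fos runs between 0.13 and 200 FPKM and Atf3 between 1.25 and 218, whereas Dusp1 lies at 251 to 323 FPKM.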

How the data were processed

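RNA of tumour CD8+ T cells was measured in 15 libraries made with the SMARTer ultra low input kit, per the labels' protocols. The authors deposited RPKM values for the bulk pair and FPKM values for the other libraries, per the file headers; the submitters' processing notes name HISAT2, Bowtie2, RSEM and the build mm10, without versions. Counts and depth were not given; the low bulk values had a commonest wild type to KO ratio of 1.09, held by 483 of 3252 genes, which is the KO depth relative to wild type if each is 1 read. Repeated symbols were dropped. A SMARTer library amplifies little RNA, so low genes can drop out.

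Sorted libraries were fitted with limma 3.58.1 in R 4.3.3 on log2(FPKM + 1), keeping genes that every fitted library lists and that average 1 FPKM or more; p-values were two-sided, Benjamini-Hochberg adjusted over all genes, and called under 0.05; the fits were tested on simulated data. A fold on this scale understates the change of low genes. Single-library comparisons called a gene at 2-fold with at least 5 in the higher library. Replicate numbers come from the titles, and same-numbered wild-type libraries deviated together (correlations 0.401, 0.193 and 0.269 over 10411 genes). The numbers also coincide with the separate tables, so these correlations cannot tell a pairing of samples from a difference between tables. A fit with the replicate block is given in the closing section. Members and lists were chosen with earlier results of these data known. Named genes are the members, Vtcn1, up to 2 genes per list with the largest difference in the same direction in every pair, and the 3 nearest profiles of Fos, Junb and Dusp1. Alternatives were the pseudocount, the filter on low values, the block, other library sets, median centring, absent genes as 0 and leaving out each library. Python 3.11.15, pandas 2.3.3, numpy 2.4.6 and matplotlib 3.10.9 were used.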

Additional observations from a re-analysis of the deposited data

Results flagged for a closer look

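In 4 cases a member's antibody effect ran at least 2-fold in opposite directions in the pairs without and with the second antibody. None of these differences was tested, since each group has 1 library. Fosb in anti_PD1 against Control was -2.73 on the log2(FPKM + 1) scale, and in combo against anti_B7S1 2.66. Fosb in anti_B7S1 against Control was -3.11, and in combo against anti_PD1 2.27. Jun in anti_PD1 against Control was -2.76, and in combo against anti_B7S1 1.48. Atf3 in anti_B7S1 against Control was 3.72, and in combo against anti_PD1 -3.09. Such opposite effects were found for 12.7% of genes with the PD-1 antibody and 12.1% with the B7S1 antibody.

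Ppp1r15a had a log2 ratio of 0.55 in bulk cells labelled KO against bulk wild type, while each sorted population was lower with the KO label than in wild type numbered 2. This difference was not tested either, and 20.5% of genes showed a direction in bulk opposite to that in all 3 sorted populations.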

How the results depend on the processing

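No member was called under any alternative to the population and interaction fits. With the replicate block the genes called were 2 in TIM-3_SP against DN, 0 in B7S1R_SP against DN and 7 in B7S1R_SP against TIM-3_SP, and no member call changed; in the interaction fits it called 0 genes. With 9 libraries and the replicate set as a block they were 6, 0 and 42, and with median centring 2, 0 and 4. For the KO label 4 genes were called, against 0 with a pseudocount of 0.1, 0 with no filter, 0 with all 9 libraries, 7 with median centring and 1 with no population covariate, and 0 to 18 when 1 library was left out. Against wild type numbered 1, a fit across tables chosen after seeing the data, 1238 genes and 8 members were called. Median centring moved the all-gene median of the genotype fit to 0.12, against -0.16.

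With 9 libraries and the set as a block the sign of the log2 difference turned for Atf3 (0.25), Egr1 (0.26) and Dusp1 (0.022) in TIM-3_SP against DN, for Fosb (0.075) and Atf3 (0.28) in B7S1R_SP against DN and for Atf3 (0.033) in B7S1R_SP against TIM-3_SP. With median centring it turned for Egr1 (0.16) in TIM-3_SP against DN and for Fosl2 (0.26) with the KO label. Leaving out 1 library in turn also turned signs, and the log2 difference is given as its lowest and highest value. In TIM-3_SP against DN it spanned -0.54 to 1.51 for Jun, -1.42 to 0.93 for Junb, -0.26 to 2.25 for Fosl2, -1.59 to 1.10 for Atf3, -0.75 to 0.63 for Egr1, -1.12 to 0.062 for Dusp1 and -1.47 to 0.14 for Ppp1r15a. In B7S1R_SP against DN it spanned -2.28 to 0.74 for Fos, -1.26 to 1.09 for Fosb, -1.98 to 3.52 for Jun, -2.72 to 0.99 for Junb, -0.89 to 0.77 for Jund, -0.99 to 1.53 for Fosl2, -3.57 to 0.71 for Atf3, -3.24 to 0.036 for Dusp1 and -2.23 to 0.44 for Ppp1r15a. In B7S1R_SP against TIM-3_SP it spanned -1.12 to 1.89 for Fos, -0.52 to 1.83 for Fosb, -2.47 to 3.04 for Jun, -2.48 to 1.23 for Junb, -1.10 to 0.56 for Jund, -1.77 to 0.32 for Fosl2, -3.33 to 0.95 for Atf3, -2.71 to 0.56 for Dusp1 and -1.56 to 1.10 for Ppp1r15a. In the KO label against wild type numbered 2 it spanned -1.55 to 0.27 for Fos, -1.11 to 0.019 for Fosb and -0.11 to 0.058 for Fosl2. The cause of these changes was not tested.

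In bulk, 2450 genes passed 2-fold with no minimum level, against 1389. With median centring 10 members passed in anti_PD1 against Control, against 5, and 7 in combo against anti_PD1, against 3; with a pseudocount of 0.1 that count was 5. Centring moved the all-gene median by -2.19 in anti_PD1 against Control, and the share of higher calls was 30.9%, against 64.8%. The medians used for centring include genes at 0, whose number differs between these libraries, so centred counts depend on how many genes were detected. In anti_B7S1 against Control it was 46.3%, against 56.7%, and in combo against anti_PD1 76.7%, against 41.9%. Depth was not given, so no counting error can be stated for low values such as Fos in combo.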
